A study of Mus musculus with 21 samples.

Results

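The clustered protocadherins were followed across mouse breast cancer cells with added ZBTB18, with an inducible TGF-β receptor beside it, or with a history of lung metastasis. The members were all protein-coding genes named Pcdha, Pcdhb, Pcdhga, Pcdhgb or Pcdhgc. There were 57 such genes among the 55573 genes of the tables: 14 alpha, 22 beta and 21 gamma genes. Pcdhgb8 carries the name but is annotated as a polymorphic pseudogene, and it was not counted as a member. The symbol Pcdha11 stood on 2 alpha rows, each kept as its own gene.

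RNA was sequenced from 21 libraries in 7 groups of 3, all derived from E0771, a mouse mammary carcinoma line that here carries GFP. The first group overexpressed ZBTB18 and a doxycycline-inducible TGFBR2. It received TGF-β1 at 2 ng/mL and doxycycline, whose concentration the labels put at 1 mg/mL. The second carried the same constructs and received the same doxycycline with vehicle. The third overexpressed ZBTB18 (OE), and the fourth carried an empty vector (EV). M11GFP and M12GFP are lines taken from spontaneous lung metastases of the GFP-labelled cells. The last group was the untreated E0771GFP parental line. The labels name 1 line for each construct and do not give its clonality, and they do not say whether the libraries of a group came from separate cultures. The p-values therefore measure the spread between these libraries. In whole-culture RNA, fewer expressing cells and less RNA per cell cannot be told apart.

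Clustered protocadherins are single-pass cell surface proteins of the cadherin superfamily that recognise copies of themselves on a neighbouring cell. Each alpha and gamma gene starts from its own promoter and its own large variable exon, which encodes the extracellular domain, and is spliced to constant exons shared by its whole cluster, which encode the end of the cytoplasmic tail. The beta genes have no such constant exons. In neurons, each cell switches on its own small set of variable promoters, a choice tied to DNA methylation and to CTCF and cohesin, and the resulting combination marks the cell as itself. The C-type genes, such as Pcdhgc3, Pcdhgc4 and Pcdhgc5, lie at the ends of the alpha and gamma clusters and are regulated apart from the others. In tumours the clusters are known as targets of DNA methylation.

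The libraries held 24208564 to 90518866 summed expected counts. In parental replicate 1 the transcript Gm42418, which overlaps ribosomal RNA, took 13.996% of the counts, against at most 0.0918% in the other libraries. TPM values (transcripts-per-million) in parental libraries ran lower on the whole: with limma on log2(TPM + 0.1), the median of all tested genes was 0.29 higher in EV, 0.20 higher in M11 and 0.23 higher in M12 cells than in parental cells on the log2 scale. Tests were made on counts scaled by edgeR's TMM factors (CPM, counts-per-million), in which the same medians lay between -0.02 and 0.00. Zbtb18, the overexpressed repressor, reached 95.2 ± 4.3 CPM with TGF-β1, 82.9 ± 6.5 CPM with vehicle and 112.9 ± 9.6 CPM in OE cells, against 25.1 ± 0.9 CPM in EV cells (SD, n = 3 each). Tgfbr2 had 604 ± 17 CPM with TGF-β1 and 588 ± 33 CPM with vehicle, against 1.74 ± 0.25 CPM in OE cells and 26.6 ± 0.4 CPM in EV cells (SD, n = 3 each). Among epithelial markers, Krt8 carried most of the list and reached 346 CPM, Krt18 reached 4.16 CPM and Epcam 3.53 CPM. Cdh1, Krt19 and Cldn4 never passed 0.148, 0.043 and 0.128 CPM in any library. The mesenchymal list summed to between 2173 and 5457 CPM, nearly all of it Vim. Cdh2 and Fn1 of that list never passed 0.0814 and 0.387 CPM.

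Neurons are the cell type best known for these genes, so their markers were read alongside. Of 10 neuronal markers, none was at 0 in all 21 libraries, but only Tubb3, a tubulin that many cultured lines express, passed 2 CPM, reaching 42.1 CPM. Rbfox3 stayed at or below 0.122 CPM, Nefm at or below 0.0814 CPM and Stmn2 at or below 0.203 CPM. The summed neuronal list ran between 15.8 and 18.5 CPM with TGF-β1, 28.6 and 43.1 CPM with vehicle, 8.38 and 10.8 CPM in OE, 10.2 and 13.2 CPM in EV, 9.44 and 15.4 CPM in M11, 9.65 and 21.8 CPM in M12 and 16.4 and 31.1 CPM in parental cells. The 3 astrocyte markers summed to at most 1.06 CPM in M11 and at most 0.11 CPM elsewhere, the 3 lung epithelial markers to at most 0.137 CPM, and the 5 blood markers, of which Cd3e was at 0 in all 21 libraries, to at most 69.9 CPM, in M12. The 3 endothelial markers summed to 3.54 to 3.99 CPM in M11 and 1.08 to 1.90 CPM in M12, against 0.114 to 0.341 CPM in parental cells. The 5 fibroblast markers, led by Col3a1, summed to 675 to 912 CPM in M11 and 201 to 341 CPM in M12, against 111 to 114 CPM in parental cells. Col3a1 reached 796 CPM, Pdgfra 145 CPM and Col1a1 43.1 CPM, while Dcn and Thy1 never passed 0.0814 and 0.326 CPM. Of the blood list Cd68 reached 69.4 CPM, while Ptprc, Adgre1 and Lyz2 never passed 0.109, 0.205 and 3.3 CPM. The part of these markers in the protocadherin differences was not tested.

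All 57 members lie on mouse chromosome 18, on the plus strand of GRCm38 (mm10): the alpha genes between 36930184 and 37187661, the beta genes between 37264938 and 37524479, and the gamma genes between 37661793 and 37841873. Sharing of sequence differs between the clusters. In the GENCODE vM21 annotation the alpha constant exons cover 2860 bases and the gamma constant exons 2119 bases, while no stretch is common to the beta genes. A median of 44.6% of a gamma gene's exonic bases lay in exons of other gamma genes, and 53.4% for alpha. The highest gamma shares were 66.8% in Pcdhga4 and 54.6% in Pcdhgb1. Their 3157 and 3154 shared bases reach beyond the constant exons, into a stretch that Pcdhga4 and Pcdhgb1 share with each other. Among beta genes, 2 overlapped, Pcdhb21 and Pcdhb22, over 455 bases.

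The values carry the mark of this sharing. RSEM divides a read that matches several transcripts among them, which leaves fractional counts. Of the values above 0, 95.6% were fractional in the gamma cluster, with all 21 genes affected, 33.3% in alpha and 6.8% in beta, against 3.56% over all other genes; a value within 0.001 of an integer was taken as whole. The fractional beta values belonged to Pcdhb21 and Pcdhb22. A gamma gene's level is thus an estimate in which reads on the constant exons were shared out, whereas a beta gene's level, apart from that pair, is a plain count.

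The alpha cluster was close to silent. Its 14 genes gathered 129 reads over all 21 libraries, 0.127 RPM (reads-per-million, over the summed library totals), and 9 of the 14 had none. A count of 0 over all libraries allows up to 0.00294 RPM (3 counts), for counting error only. Pcdha9 held most of the alpha reads, at 0.246 ± 0.071 CPM in EV cells and 0.038 ± 0.066 CPM in parental cells (SD, n = 3 each). Of the alpha C-type genes, Pcdhac1 and Pcdhac2 had no read in any library. The beta cluster gathered 12289 reads with all 22 genes detected, and the gamma cluster 149332 reads with all 21 genes detected.

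Summed over its 22 genes, the beta cluster reached 6.25 ± 1.03 TPM with TGF-β1, 4.89 ± 0.91 TPM with vehicle, 5.51 ± 0.20 TPM in OE, 2.89 ± 0.17 TPM in EV, 3.98 ± 0.82 TPM in M11, 1.27 ± 0.43 TPM in M12 and 1.39 ± 0.10 TPM in parental cells (SD, n = 3 each). M12 and parental libraries overlapped and formed the low end. The gamma cluster summed to 61.1 ± 2.4 TPM with TGF-β1, 69.3 ± 3.5 TPM with vehicle, 51.7 ± 3.7 TPM in OE, 36.2 ± 4.2 TPM in EV, 40.8 ± 8.9 TPM in M11, 45.3 ± 6.7 TPM in M12 and 10.3 ± 0.9 TPM in parental cells (SD, n = 3 each). Only the parental libraries stood below all others. The M12 group had the lowest mean for beta, while its gamma mean lay above those of EV and M11. The M11 and M12 libraries overlapped for gamma.

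**Figure D1:**
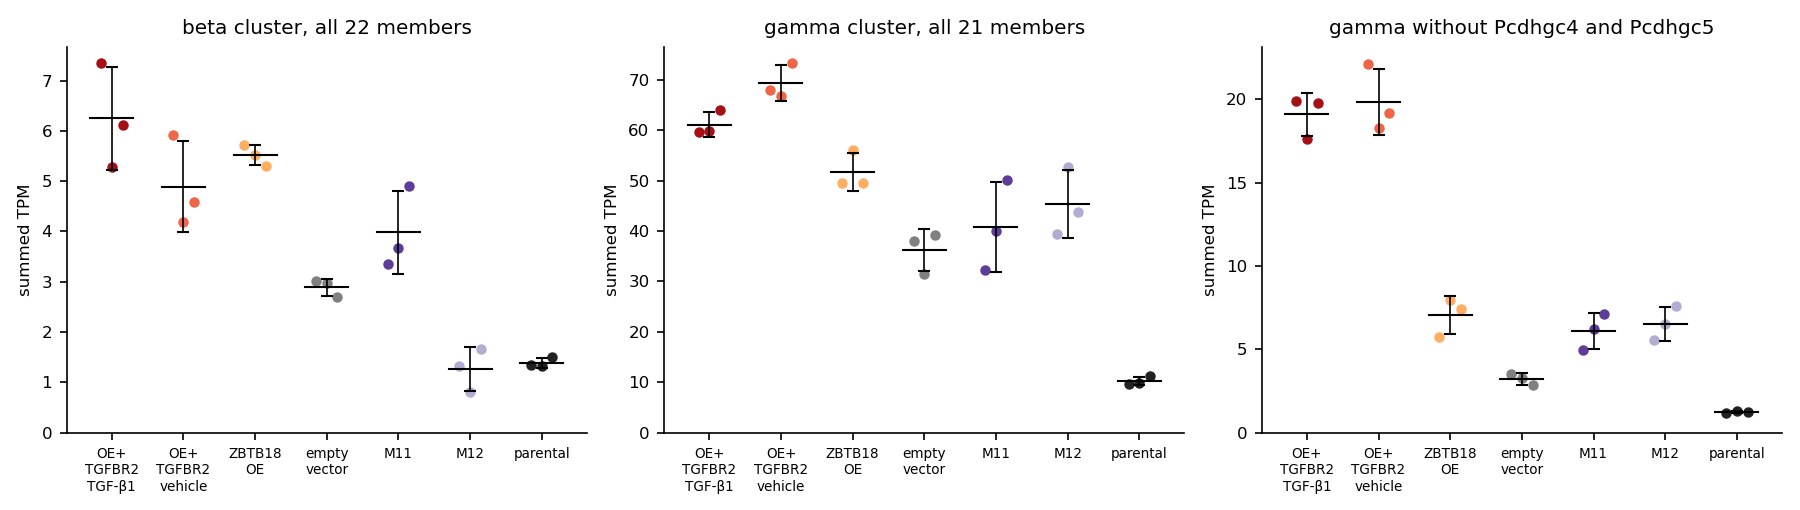
Summed TPM per library (points) with the group mean and SD (bars), for the 22 beta genes, the 21 gamma genes, and the gamma genes without Pcdhgc4 and Pcdhgc5. OE, ZBTB18 overexpression; the parental libraries sit lowest in both gamma panels, and the receptor lines (OE+TGFBR2) stand apart in the right panel, where they average 19.1 TPM with TGF-β1 and 19.9 TPM with vehicle.

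Of the 57 members, 34 passed edgeR's low-count filter and were tested: 1 alpha gene, 15 of 22 beta genes and 18 of 21 gamma genes. The 23 that were not tested had little signal: 13 alpha genes at up to 0.0076 TPM on average over all libraries, 7 beta genes (Pcdhb1, Pcdhb2, Pcdhb3, Pcdhb9, Pcdhb11, Pcdhb12 and Pcdhb13) at up to 0.0562 TPM and 3 gamma genes (Pcdhga7, Pcdhgb4 and Pcdhgc3) at up to 0.0176 TPM. Of the 34, 27 passed the threshold of an adjusted p of 0.05 in at least 1 of 7 comparisons. The 7 that never did were Pcdhb4, Pcdhb6, Pcdhb8, Pcdhb15, Pcdhga1, Pcdhga2 and Pcdhga9. The share of all tested genes that passed in at least 1 comparison was not computed, so the 27 have no baseline. In EV against parental cells alone, 28.9% of all tested genes rose and 29% fell. A gene can pass the filter through 1 high group alone, so counts over the 34 describe these genes and no more.

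Pcdhgc5, the last gene of the gamma cluster and a C-type isoform, was the most abundant member in every group, with a mean of 33.7 TPM over the 21 libraries against 3.68 TPM for the next, Pcdhgb7. It had 123.2, 117 and 130 CPM with TGF-β1, 134, 140 and 151 CPM with vehicle, 101, 133 and 117 CPM in OE cells, 102, 85.8 and 107 CPM in EV cells, 90.9, 124 and 127 CPM in M11, 107, 144 and 112 CPM in M12, and 33.3, 28.1 and 26.5 CPM in parental cells. The parental libraries were all far below the rest, and the OE, EV, M11 and M12 libraries overlapped. Pcdhgc5 supplied 65.8 ± 0.8% of the gamma TPM with TGF-β1, 67.1 ± 2.5% with vehicle, 77.7 ± 7.2% in OE, 90.9 ± 1.6% in EV, 80.1 ± 3.7% in M11, 78.5 ± 2.8% in M12 and 71.7 ± 3.5% in parental cells (SD, n = 3 each). By this share EV cells carried the most one-sided gamma mixture, and the receptor line and parental cells the least. In parental cells Pcdhgc4 averaged 1.69 TPM, and the gamma genes other than Pcdhgc4 and Pcdhgc5 summed to 1.24 TPM. With Pcdhgc4 left out, parental cells no longer stood below OE, M11 and M12 cells in the share of Pcdhgc5. EV cells then stayed highest and the receptor line lowest. The implied transcript length of Pcdhgc5, the length at which its counts and TPM match, ran between 4228 and 4754 bases. The full-length transcript Pcdhgc5-201, at 4741 bases, lies inside this range, above its median of 4504. Other annotated transcripts of Pcdhgc5 have 444, 593 and 5777 bases, and their part in its TPM was not tested.

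Pcdhgc4, the C-type isoform that mouse neurons require for survival, behaved differently. It had 1.41, 4.81 and 2.42 CPM with TGF-β1, 3.49, 4.12 and 6.25 CPM with vehicle, 13.9, 2.10 and 3.67 CPM in OE cells, 0.201, 0.082 and 0.185 CPM in EV cells, 3.58, 0.219 and 6.35 CPM in M11, 5.05, 5.33 and 4.61 CPM in M12, and 2.58, 3.17 and 3.64 CPM in parental cells. Libraries of 1 group differed widely: OE replicate 1 stood far above its partners and M11 replicate 2 was close to the highest EV library, while M12 and parental libraries stayed close together. EV libraries were below those of every other group, and each other pair of neighbours in the order of group means overlapped.

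The Pcdhgc4 counts did not sit mainly on the full-length transcript. In the 17 libraries with at least 0.2 TPM its implied length was 2267 to 2669 bases, with a median of 2380, against 5024 bases for the full-length Pcdhgc4-201 and 2272 bases for Pcdhgc4-203, of which 93.3% is gamma constant exon. By the same calculation Pcdhgb7 came to 4681 to 4732 bases for an annotated transcript of 4713, and Pcdhgb1 to 4553 to 4727 bases for one of 4723. The level given for Pcdhgc4 therefore rests mainly on reads from exons that all gamma genes share. Pcdhgc4 and Pcdhgc5 together summed to 115, 136 and 120 CPM in OE cells against 103, 85.9 and 107 CPM in EV cells, so the OE libraries lay above the EV libraries, without overlap. In M11 the same sum was 94.5, 125 and 133 CPM, against 35.9, 31.3 and 30.2 CPM in parental cells. Pcdhgc3, the remaining C-type gamma gene, held 13.5 reads in all.

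**Figure D2:**
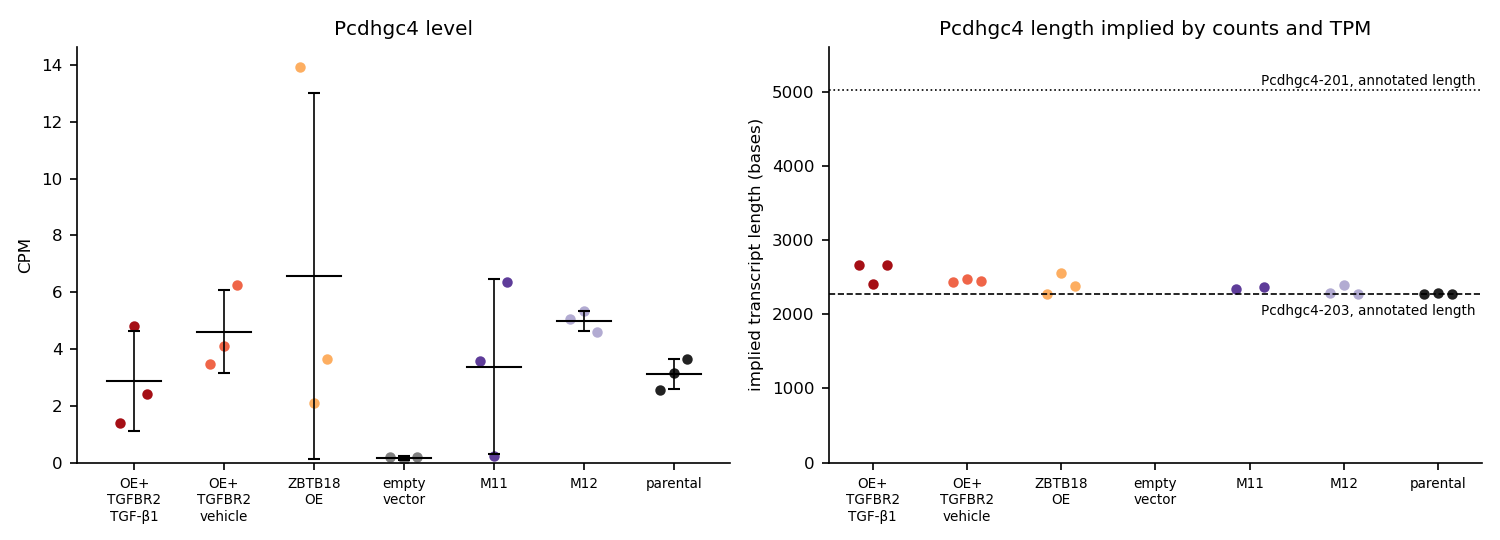
Left, Pcdhgc4 level in CPM per library with group mean and SD; right, the transcript length in bases implied by its counts and TPM in the 17 libraries with at least 0.2 TPM, with the annotated lengths of 2 Pcdhgc4 transcripts as lines. The level varies widely within the OE and M11 groups, and all lengths lie nearer to Pcdhgc4-203 than to Pcdhgc4-201. The retained-intron transcript Pcdhgc4-202, of 3100 bases, is not drawn.

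Without Pcdhgc4 and Pcdhgc5, the other 19 gamma genes summed to 19.1 ± 1.3 TPM with TGF-β1, 19.9 ± 2.0 TPM with vehicle, 7.05 ± 1.15 TPM in OE, 3.22 ± 0.35 TPM in EV, 6.11 ± 1.09 TPM in M11, 6.55 ± 1.02 TPM in M12 and 1.24 ± 0.07 TPM in parental cells (SD, n = 3 each). Most of these are the genes whose promoters are chosen cell by cell in neurons, and the leading gene differed between the lines. Pcdhgb7 supplied 48.1 ± 1.8% of this sum with TGF-β1, 51.8 ± 1.1% with vehicle, 38.5 ± 3.2% in OE, 39.2 ± 6.2% in EV, 11.9 ± 1.8% in M11, 19.3 ± 3.0% in M12 and 30.3 ± 2.6% in parental cells. Pcdhgb1 supplied 52.1 ± 7.6% in M11 and 27.3 ± 4.1% in M12, against 8.82 ± 3.39% in parental cells. Pcdhgb2 supplied 33.7 ± 2.6% in M12 and 10.7 ± 3.5% in M11, against 23.0 ± 1.8% in parental cells (SD, n = 3 each). The gene leading each mixture was thus Pcdhgb1 in M11, Pcdhgb2 in M12 and Pcdhgb7 in the other 5 groups. The implied length of Pcdhgb2 ran between 2748 and 4721 bases over the libraries. Its annotated transcripts are a spliced one of 4661 bases and a retained-intron one of 2756 bases that holds no constant exon.

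**Figure D3:**
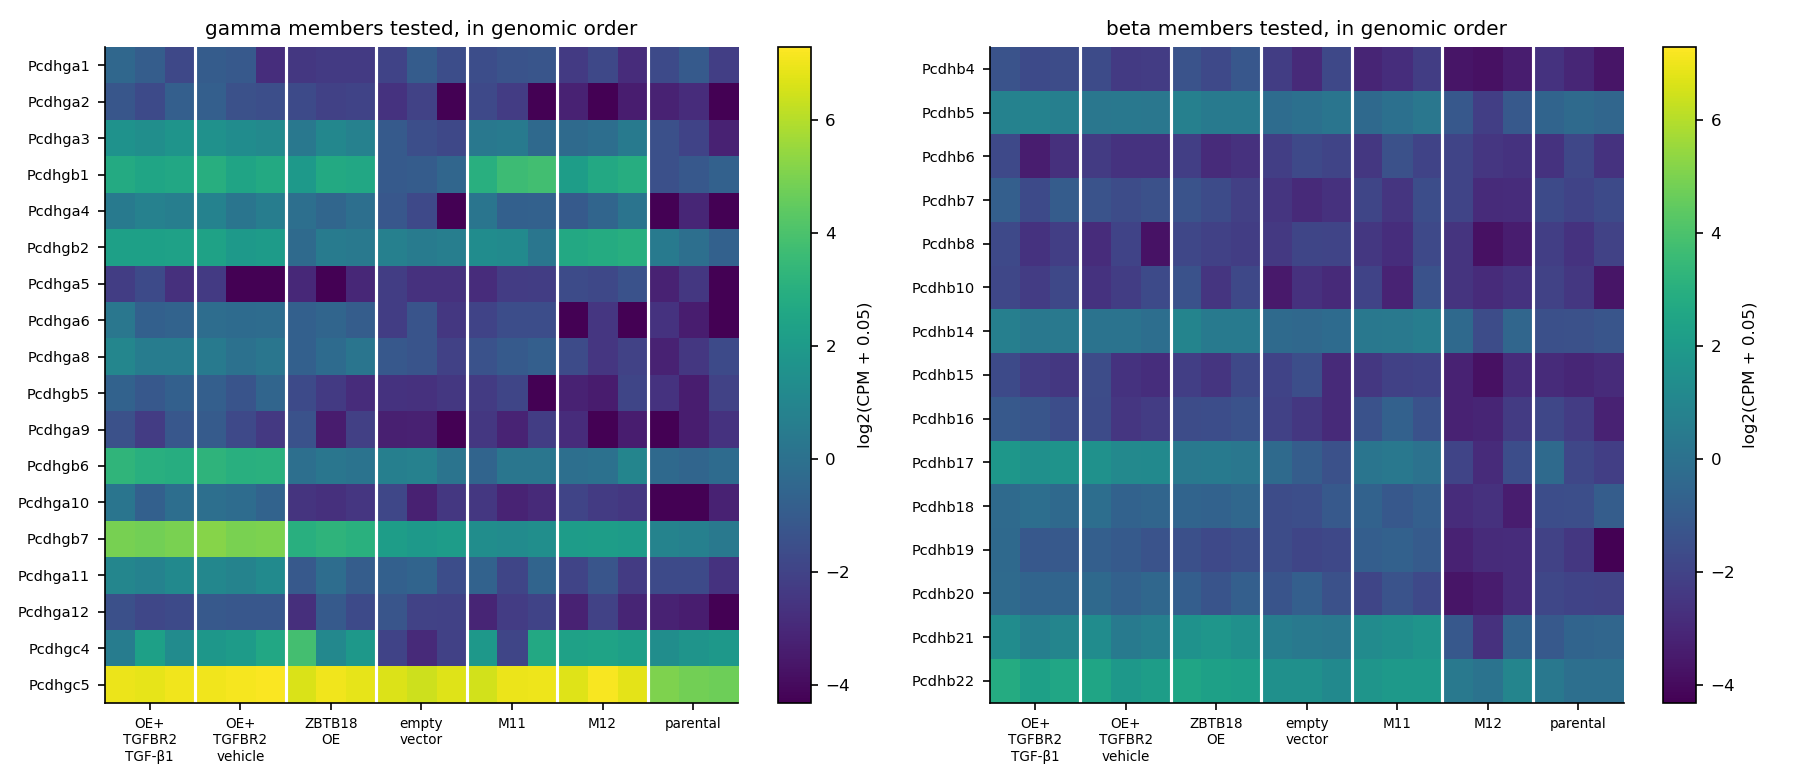
Levels of the 18 tested gamma genes and 15 tested beta genes in each of the 21 libraries, coloured by log2(CPM + 0.05), with genes down the page in genomic order and 3 libraries per group. Pcdhgc5 is bright everywhere but dimmer in parental cells, Pcdhgb6 and Pcdhgb7 brighten in the receptor lines, Pcdhgb1 is dim in EV and parental cells, and Pcdhb5, Pcdhb17, Pcdhb18, Pcdhb19 and Pcdhb21 are dimmest in M12.

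OE cells against EV cells asked what added ZBTB18 goes with. Of the 34 tested members, 14 rose and 0 fell, against 14% of all tested genes that rose and 14.5% that fell. The 14 were 7 of 15 beta genes (Pcdhb7, Pcdhb10, Pcdhb14, Pcdhb17, Pcdhb18, Pcdhb21 and Pcdhb22) and 7 of 18 gamma genes (Pcdhga3, Pcdhga4, Pcdhga6, Pcdhga8, Pcdhgb1, Pcdhgb7 and Pcdhgc4). The 14 calls stood at adjusted p under 0.05 in edgeR's quasi-likelihood test. By the same test 18 of the 34 had an unadjusted p under 0.05, a cut for which the share of all tested genes was not computed.

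Pcdhgb1, a gamma B-type adhesion gene, had 3.80, 6.62 and 6.29 CPM in OE libraries against 0.439, 0.465 and 0.660 CPM in EV libraries. The lowest OE library lay above the highest EV library, a log2 difference of 3.44 (SE 0.29, edgeR adjusted p = 8.6e-09). Pcdhgb7 had 7.94, 9.38 and 8.22 CPM in OE against 4.31, 3.72 and 4.20 CPM in EV libraries, without overlap (log2 difference 1.06, SE 0.11, edgeR adjusted p = 3.6e-07). Pcdhga3 had 1.22, 2.05 and 1.68 CPM in OE against 0.439, 0.301 and 0.238 CPM in EV libraries, again without overlap (log2 difference 2.26, SE 0.33, edgeR adjusted p = 1.8e-05). Pcdhga4 had 0.908, 0.664 and 0.894 CPM in OE against 0.401, 0.246 and 0 CPM in EV libraries. It rose by 1.75 on the log2 scale (SE 0.52, edgeR adjusted p = 0.015), and by 2.74 without EV replicate 1 (edgeR adjusted p = 0.0055). Pcdhgc5 was not past the threshold in this comparison.

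Pcdhgc4 gave the largest log2 difference of the members in OE against EV cells, 5.29 (SE 1.02, edgeR adjusted p = 0.0011), and its values are those given above. The 3 EV libraries held 15.6, 3.44 and 6.87 expected counts. In OE libraries its implied length was 2278, 2556 and 2380 bases, so its level there rests mainly on shared exons. EV levels, at 0.06, 0.03 and 0.05 TPM, were too low for an implied length. Whether OE and EV counts sit on the same transcript was not tested. OE replicate 1 lay far above its group. Without OE replicate 1 the log2 difference was 4.11 (edgeR adjusted p = 0.0036). Of 10 neuronal markers 2 were tested in OE against EV cells: Syp, a synaptic vesicle protein, rose by 3.03 on the log2 scale (SE 0.34, edgeR adjusted p = 7.8e-07), and Tubb3 had a log2 difference of -0.47 (edgeR adjusted p = 0.22). Their part in the protocadherin differences was not tested.

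Among the beta genes, which share no constant exons, Pcdhb22 was the most abundant. It had 5.62, 4.81 and 4.58 CPM in OE against 2.82, 2.79 and 2.22 CPM in EV libraries, with no overlap (log2 difference 0.93, SE 0.20, edgeR adjusted p = 0.0014). Pcdhb21 had 3.03, 3.36 and 2.79 CPM in OE against 1.49, 1.23 and 1.16 CPM in EV libraries (log2 difference 1.23, SE 0.30, edgeR adjusted p = 0.0037). Pcdhb14 had 1.85, 1.31 and 1.31 CPM in OE against 0.765, 0.711 and 0.793 CPM in EV libraries, and did not overlap either (edgeR adjusted p = 0.0051). Among the genes named by rule, 2 lost their call without 1 library: Pcdhb17 had an adjusted p of 0.080 without EV replicate 3 and 0.050 without EV replicate 2, and Pcdhb18 had 0.058 without OE replicate 3, 0.096 without EV replicate 1 and 0.053 without EV replicate 2.

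Vehicle-treated receptor cells against OE cells differ by the inducible TGFBR2 construct together with doxycycline, which the design does not separate. Of the 34 tested members 7 rose and 2 fell, against 19.5% of all tested genes that rose and 19.3% that fell. The 6 gamma genes that rose were Pcdhga10, Pcdhga11, Pcdhgb2, Pcdhgb5, Pcdhgb6 and Pcdhgb7, and no gamma gene fell. Among the beta genes Pcdhb17 rose and Pcdhb14 and Pcdhb21 fell. Of the 2 tested neuronal markers, Tubb3 rose by 2.12 on the log2 scale (SE 0.28, edgeR adjusted p = 8.8e-06) and Syp had a log2 difference of -0.40 (edgeR adjusted p = 0.26). Their part was not tested.

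Pcdhgb7 had 36.1, 31.1 and 32.0 CPM in vehicle-treated receptor cells against 7.94, 9.38 and 8.22 CPM in OE cells, a log2 difference of 1.96 (SE 0.11, edgeR adjusted p = 1.3e-11). Pcdhgb6, another B-type gene, had 9.48, 7.97 and 8.18 CPM with vehicle against 0.888, 1.14 and 1.04 CPM in OE cells (log2 difference 3.06, SE 0.25, edgeR adjusted p = 4.1e-09). Pcdhgb2 had 5.10, 3.76 and 4.13 CPM with vehicle against 0.753, 1.39 and 1.26 CPM in OE cells (log2 difference 1.94, SE 0.26, edgeR adjusted p = 3.9e-06). In all 3 genes every vehicle library lay above every OE library. Pcdhga10, an A-type gamma gene, had 0.898, 0.820 and 0.599 CPM with vehicle against 0.116, 0.104 and 0.128 CPM in OE cells (log2 difference 2.72, SE 0.43, edgeR adjusted p = 3.7e-05).

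Pcdhb17 averaged 2.45 ± 0.39 CPM with vehicle against 1.24 ± 0.07 CPM in OE cells (SD, n = 3 each; edgeR adjusted p = 0.018). It was no longer past the threshold without vehicle replicate 1 (adjusted p = 0.082) or without OE replicate 3 (0.062). Pcdhb21 averaged 1.77 ± 0.62 CPM with vehicle against 3.06 ± 0.29 CPM in OE cells (edgeR adjusted p = 0.041), and Pcdhb14 averaged 0.970 ± 0.082 CPM against 1.49 ± 0.31 CPM (edgeR adjusted p = 0.048). Both falls depended on single libraries: the count of members that fell was 1 without vehicle replicate 1 or 2, and 0 without vehicle replicate 3 or any OE replicate.

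TGF-β1 against vehicle in the receptor cells asked for the response to the ligand. Of the 34 tested members 0 rose and 0 fell by edgeR, against 1.26% of all tested genes that rose and 0.654% that fell. At an unadjusted p under 0.05 edgeR gave 2 members, Pcdhb5 and Pcdhb16, both higher with TGF-β1. The share of all tested genes at that cut was not computed. DESeq2 called 0 members after adjustment, with no adjusted p for 16 of them, and gave 1 at an unadjusted p under 0.05, Pcdhb5; limma on log2(TPM + 1) called 0 and gave 4. Pcdhb5 had 1.74, 1.72 and 1.55 CPM with TGF-β1 against 1.18, 1.19 and 1.15 CPM with vehicle, and these did not overlap (log2 difference 0.51, SE 0.22, edgeR adjusted p = 0.32). All 15 tested beta genes had a log2 difference above 0, with a median of 0.35, while 9 of the 18 gamma genes did and their median was 0.00; the median of all tested genes was -0.005. The gamma TPM sums of the 3 TGF-β1 libraries lay below those of the 3 vehicle libraries, with no test. Without the low-count filter edgeR called 1 member, Pcdhgc4, as lower with TGF-β1. In the test with the filter its log2 difference was -0.70 (SE 0.74, edgeR adjusted p = 0.81).

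**Figure D4:**
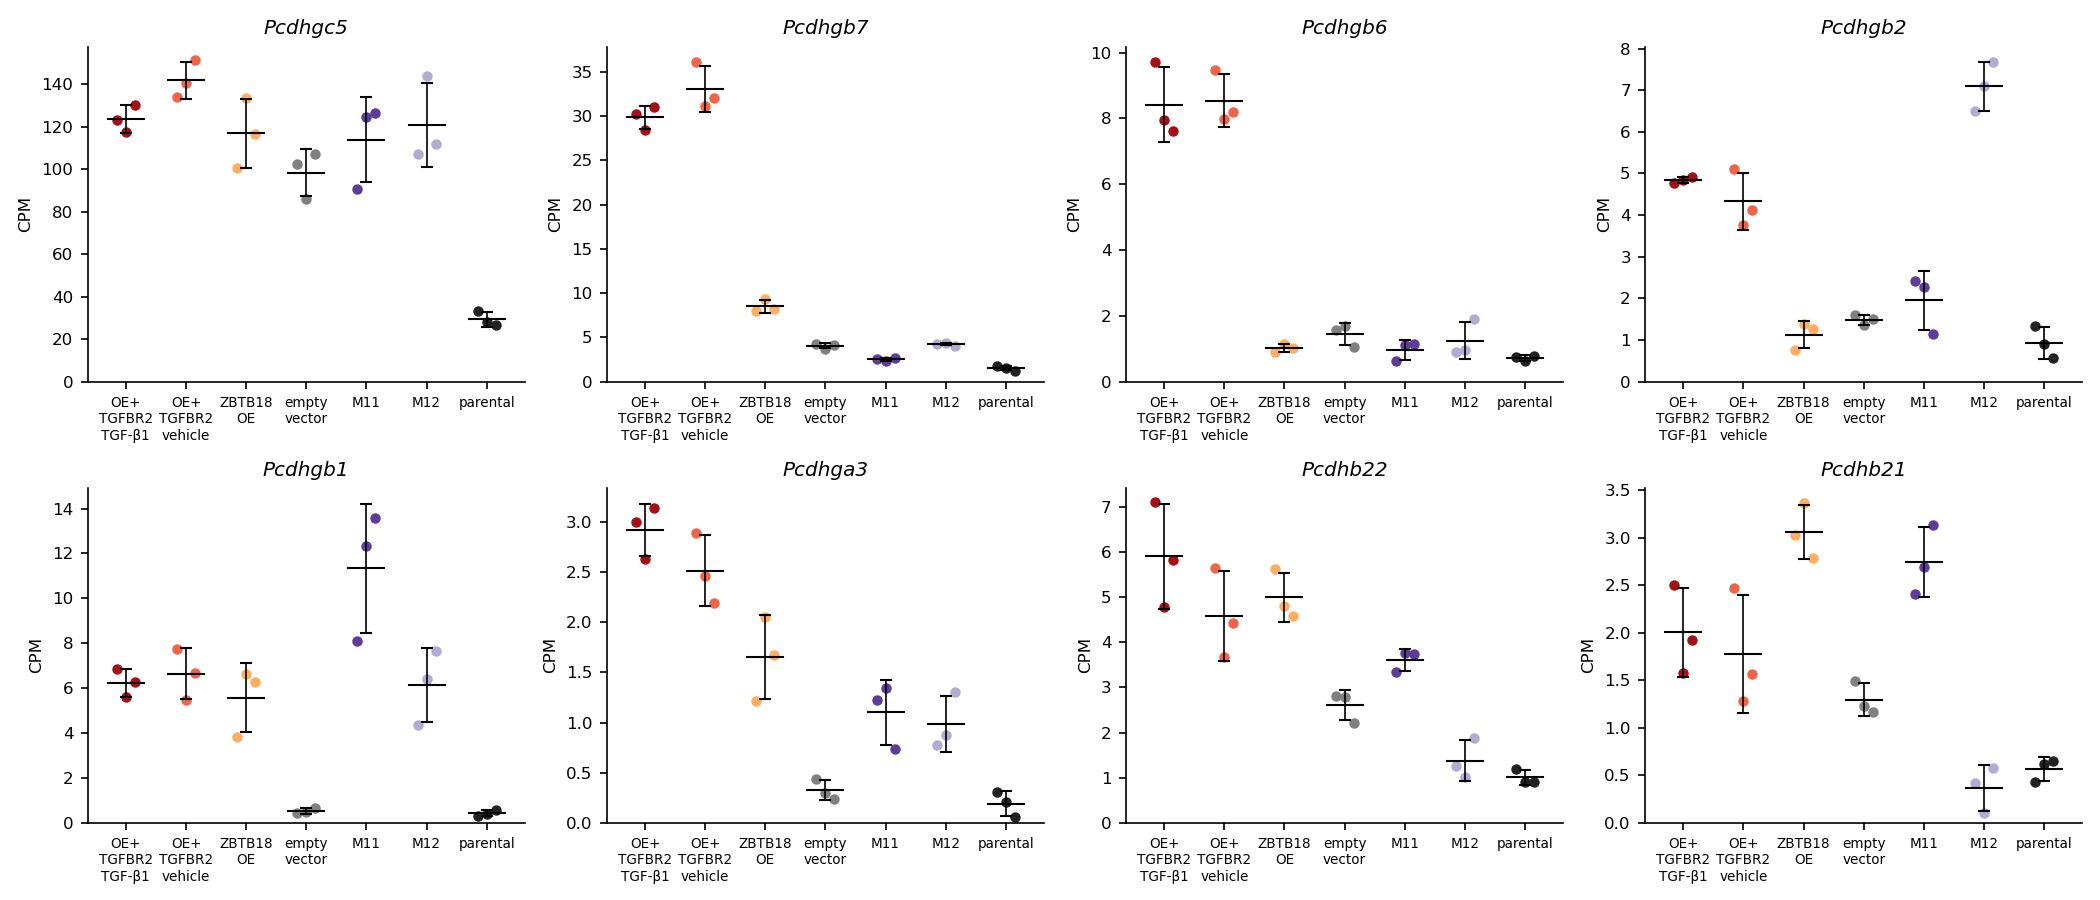
Levels in CPM per library of 6 gamma genes and 2 beta genes, with group mean and SD, on axes that start at 0. Pcdhgc5 is lowest in parental cells, Pcdhgb6 and Pcdhgb7 are highest in the receptor lines (OE+TGFBR2), Pcdhgb2 in M12, Pcdhgb1 in M11, and Pcdhb21 is lowest in M12 and parental cells.

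EV cells against parental cells compare the vector-carrying line with the line it came from. Mitochondrial transcripts took 0.52% to 1.09% of counts in EV, OE and receptor libraries. In parental, M11 and M12 libraries they took 1.80% to 3.42%. The calibration of implied lengths took off 206 to 232 bases in the former and 185 to 201 in the latter. The labels name no batch. Differences in library handling cannot be told apart from the line in this comparison. Of the 34 tested members 15 rose and 2 fell, against 28.9% of all tested genes that rose and 29% that fell. The risers were 4 beta genes (Pcdhb14, Pcdhb20, Pcdhb21 and Pcdhb22), 10 gamma genes (Pcdhga4, Pcdhga6, Pcdhga8, Pcdhga10, Pcdhga11, Pcdhga12, Pcdhgb2, Pcdhgb6, Pcdhgb7 and Pcdhgc5) and Pcdha9, and those that fell were Pcdhb7 and Pcdhgc4. Pcdhgc5 averaged 98.5 ± 11.2 CPM in EV against 29.3 ± 3.6 CPM in parental cells, a log2 difference of 1.75 (SE 0.14, edgeR adjusted p = 5.7e-09). The library values above show no overlap. Both tested neuronal markers fell in this comparison, Syp by 1.46 and Tubb3 by 0.97 on the log2 scale (edgeR adjusted p = 0.0025 and 0.0054), and their part was not tested.

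Pcdhgb7 averaged 4.08 ± 0.32 CPM in EV against 1.54 ± 0.27 CPM in parental cells (log2 difference 1.40, SE 0.13, edgeR adjusted p = 3.9e-08). Pcdhb22 averaged 2.61 ± 0.34 CPM in EV against 1.00 ± 0.16 CPM in parental cells (log2 difference 1.39, SE 0.23, edgeR adjusted p = 3.9e-05), and Pcdhb21 1.29 ± 0.17 CPM against 0.564 ± 0.122 CPM (edgeR adjusted p = 0.0053). None of these overlapped. Pcdhgb1 averaged 0.521 ± 0.121 CPM in EV and 0.430 ± 0.129 CPM in parental cells and was not past the threshold.

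Pcdhgc4 averaged 0.156 ± 0.064 CPM in EV against 3.13 ± 0.53 CPM in parental cells, a log2 difference of -4.22 (SE 1.04, edgeR adjusted p = 0.0030), with no overlap. Its level in parental cells rests mainly on exons that all gamma genes share, and no implied length was computed for EV libraries. Whether EV and parental counts of Pcdhgc4 sit on the same transcript was not tested. Pcdhgc4 and Pcdhgc5 together went the other way, at 98.6 ± 11.3 CPM in EV against 32.5 ± 3.0 CPM in parental cells (SD, n = 3 each). In this comparison 16 of the 18 tested gamma genes had a log2 difference above 0. Leaving out any single EV or parental library left 1 member fallen, Pcdhgc4, and Pcdhb7 no longer passed. Pcdhga4 rested on 41 reads in EV cells against 3 in parental cells, a ratio of 10.1 with an exact 95% counting interval of 3.24 to 51.2, and its adjusted p was 0.13 without EV replicate 1. Pcdhga10 rested on 25 reads in EV against 2 in parental cells (ratio 9.28, exact 95% counting interval 2.31 to 80.8). Reads here and in the comparisons below are expected counts rounded to whole numbers. The intervals leave out the error from dividing reads on shared exons. All parental reads of Pcdhga4 were in parental replicate 2 and all those of Pcdhga10 in parental replicate 3, in each comparison against parental cells. Pcdhgb2 was past the threshold at 0.042 but not without EV replicate 1 or 3, or without parental replicate 2 or 3. The 15 rises became 10 without parental replicate 2, and 11 without EV replicate 1 or parental replicate 3.

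M11 cells against parental cells compare a lung metastasis line with its source. Of the 34 tested members 16 rose and 0 fell, against 20.8% of all tested genes that rose and 20% that fell. These were 6 beta genes (Pcdhb14, Pcdhb16, Pcdhb17, Pcdhb19, Pcdhb21 and Pcdhb22) and 10 gamma genes (Pcdhga3, Pcdhga4, Pcdhga6, Pcdhga8, Pcdhga10, Pcdhga11, Pcdhgb1, Pcdhgb2, Pcdhgb7 and Pcdhgc5). Pcdhgb1 had 8.08, 12.3 and 13.6 CPM in M11 against 0.311, 0.410 and 0.568 CPM in parental libraries, without overlap (log2 difference 4.71, SE 0.30, edgeR adjusted p = 8.4e-11). Pcdhga4 rested on 81 reads in M11 against 3 in parental cells, a ratio of 30.5 with an exact 95% counting interval of 10.1 to 151. That interval covers counting error only, and 66.8% of the exonic bases of Pcdhga4 are shared with other members. A part of these is shared with Pcdhgb1 alone, so the rises of Pcdhga4 and Pcdhgb1 are not separate estimates.

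Pcdhga3 had 1.22, 1.35 and 0.733 CPM in M11 against 0.311, 0.205 and 0.057 CPM in parental libraries (log2 difference 2.53, SE 0.39, edgeR adjusted p = 2.0e-05). Pcdhgc5 rose by 1.96 on the log2 scale (SE 0.14, edgeR adjusted p = 5.0e-10). Among the beta genes Pcdhb21 had 2.40, 2.69 and 3.13 CPM in M11 against 0.425, 0.615 and 0.653 CPM in parental libraries (log2 difference 2.26, SE 0.34, edgeR adjusted p = 1.6e-05). All 3 genes were without overlap. Pcdhb19 rose to 0.508 ± 0.058 CPM in M11, against 0.112 ± 0.101 CPM in parental cells (edgeR adjusted p = 0.0012). Pcdhga10, with 9 reads in M11 against 2 in parental cells, lost its call without M11 replicate 1 or 3 and without parental replicate 1 or 2.

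M12 cells against parental cells gave 9 members that rose and 3 that fell of 34, against 24.9% of all tested genes that rose and 25.2% that fell. All 9 were gamma genes (Pcdhga3, Pcdhga4, Pcdhga5, Pcdhga10, Pcdhgb1, Pcdhgb2, Pcdhgb6, Pcdhgb7 and Pcdhgc5), and all 3 that fell were beta genes (Pcdhb5, Pcdhb18 and Pcdhb20). Pcdhgb1 had 4.37, 6.42 and 7.63 CPM in M12 against 0.311, 0.410 and 0.568 CPM in parental libraries (log2 difference 3.84, SE 0.30, edgeR adjusted p = 1.3e-09). Pcdhgb2 had 6.505, 7.11 and 7.67 CPM in M12 against 1.33, 0.912 and 0.568 CPM in parental libraries (log2 difference 2.92, SE 0.27, edgeR adjusted p = 1.5e-08). Neither overlapped.

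Pcdhga4 rested on 93 reads in M12 against 3 in parental cells (ratio 28.2, exact 95% counting interval 9.37 to 139), and Pcdhga3 averaged 0.985 ± 0.279 CPM in M12 against 0.191 ± 0.128 CPM in parental cells (edgeR adjusted p = 3.0e-05). Pcdhb5 had 0.416, 0.172 and 0.419 CPM in M12 against 0.623, 0.752 and 0.653 CPM in parental libraries, so all M12 libraries lay below (log2 difference -1.03, SE 0.28, edgeR adjusted p = 0.0045). Pcdhb18 averaged 0.080 ± 0.033 CPM in M12 against 0.354 ± 0.112 CPM in parental cells (SD, n = 3 each). It fell by 2.11 on the log2 scale (SE 0.40, edgeR adjusted p = 1.5e-04). The number that fell was 5 without M12 replicate 1 or 3. Pcdhgb6 was not past the threshold without M12 replicate 3 (adjusted p = 0.30) or without parental replicate 2 (0.089).

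M11 cells against M12 cells set the metastasis lines beside each other. Of the 34 tested members 12 rose and 2 fell, against 17.7% of all tested genes that rose and 17.8% that fell. The beta cluster supplied 9 of the 12 (Pcdhb5, Pcdhb14, Pcdhb16, Pcdhb17, Pcdhb18, Pcdhb19, Pcdhb20, Pcdhb21 and Pcdhb22), and all 15 tested beta genes had a log2 difference above 0, with a median of 1.56 against 0.00 over all tested genes. The gamma cluster was split: Pcdhga6, Pcdhga8 and Pcdhgb1 were higher in M11, and Pcdhgb2 and Pcdhgb7 were lower. With the replicate number as a block, Pcdhga8 was no longer past the threshold (edgeR adjusted p = 0.052, against 0.048 without it).

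Pcdhb21 had 2.40, 2.69 and 3.13 CPM in M11 against 0.416, 0.107 and 0.573 CPM in M12 libraries (log2 difference 2.91, SE 0.36, edgeR adjusted p = 2.0e-06). Pcdhb17 had 1.09, 1.22 and 0.977 CPM in M11 against 0.208, 0.086 and 0.287 CPM in M12 libraries (log2 difference 2.50, SE 0.44, edgeR adjusted p = 1.2e-04). Pcdhb18 averaged 0.505 ± 0.088 CPM in M11 against 0.080 ± 0.033 CPM in M12 cells (edgeR adjusted p = 1.7e-05), and Pcdhb19 0.508 ± 0.058 CPM against 0.078 ± 0.016 CPM (edgeR adjusted p = 3.1e-04). All 4 were without overlap.

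Pcdhgb2 was the reverse case, at 2.43, 2.28 and 1.14 CPM in M11 against 6.505, 7.11 and 7.67 CPM in M12 libraries (log2 difference -1.83, SE 0.25, edgeR adjusted p = 8.1e-06). Pcdhgb7 had 2.54, 2.38 and 2.64 CPM in M11 against 4.28, 4.38 and 4.08 CPM in M12 libraries (log2 difference -0.75, SE 0.12, edgeR adjusted p = 6.7e-05). Neither gene overlapped. Pcdhgb1 averaged 11.3 ± 2.9 CPM in M11 against 6.14 ± 1.65 CPM in M12 cells (log2 difference 0.87, edgeR adjusted p = 0.0050).

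**Figure D5:**
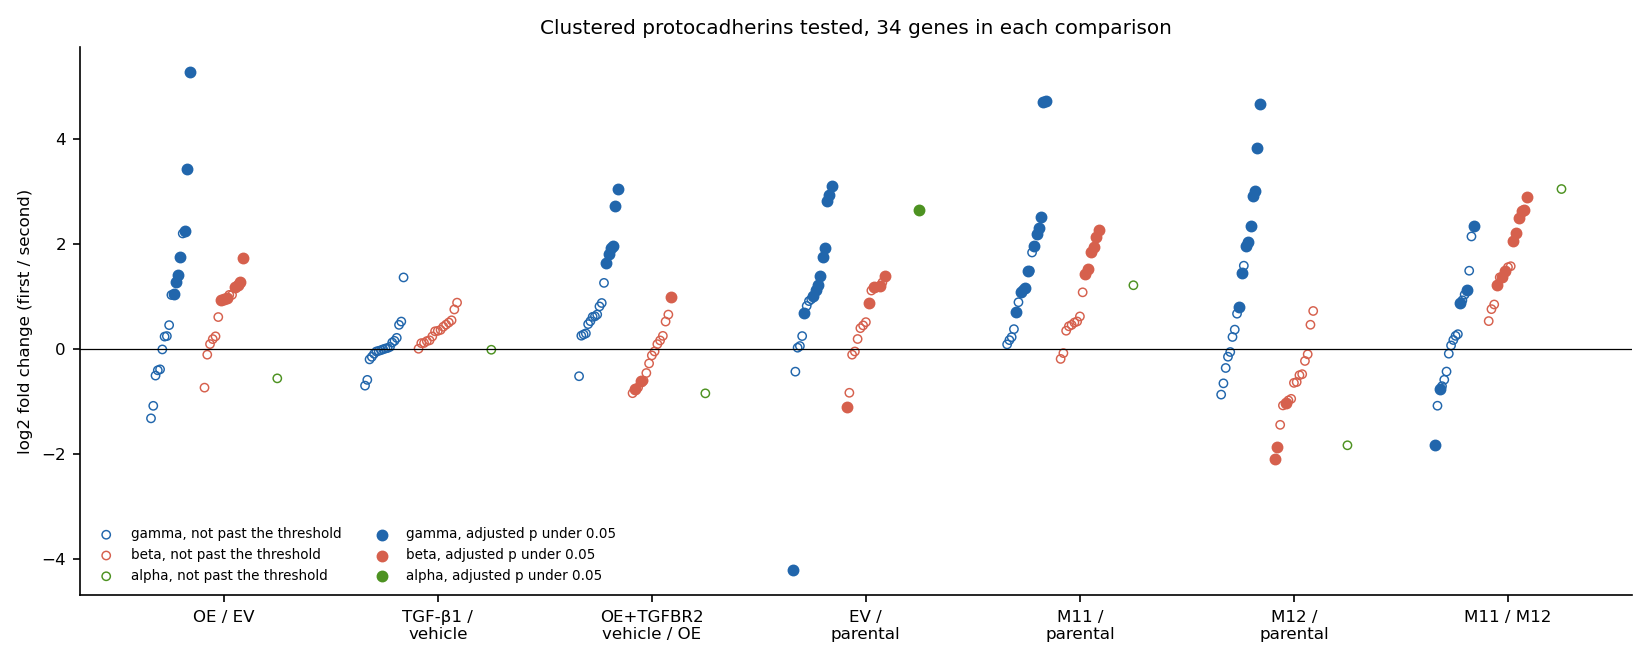
Log2 fold change of each of the 34 tested members (1 point per gene) in 7 comparisons, first-named group over second, with gamma, beta and alpha genes in separate columns and filled points past an adjusted p of 0.05. No point is filled for TGF-β1 against vehicle, the 14 filled points of OE against EV all lie above 0, and M11 against M12 has 9 filled beta points above 0.

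Several of these comparisons share a group: EV, M11 and M12 are each set against the same 3 parental libraries, and OE against EV and vehicle against OE share the OE libraries. The values are therefore given side by side and no overlap is drawn from them. A median log2 difference over the 15 tested beta genes was 0.95 in OE against EV, -0.12 in vehicle against OE, 0.51 in EV against parental, 0.62 in M11 against parental and -0.65 in M12 against parental cells. Over the 18 tested gamma genes it was 0.74, 0.74, 0.98, 1.33 and 1.13 in the same comparisons. Over all tested genes it lay between -0.02 and 0.01 in each.

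Regulators of protocadherin promoter choice, a list of 27 genes for CTCF, cohesin, DNA methylation and repressive chromatin, were all tested. In OE against EV cells 2 rose, against 14% of all tested genes (Ehmt2, a histone H3 lysine methyltransferase, and Tet2, a DNA demethylation enzyme) and 2 fell, against 14.5% (Stag1, a cohesin subunit, and Kdm1a, a histone demethylase), with log2 differences between -0.41 and 0.40. In vehicle-treated receptor cells against OE cells 2 rose and 8 fell, against 19.5% and 19.3% of all tested genes. Dnmt3b, a de novo DNA methyltransferase, fell by 1.75 on the log2 scale (SE 0.18, edgeR adjusted p = 1.1e-07). Tet1, a DNA demethylation enzyme, fell by 1.76 on the log2 scale (SE 0.28, edgeR adjusted p = 4.3e-05). With TGF-β1 against vehicle 3 rose, Dnmt3a, Dnmt3b and Kdm1a, by 0.58, 0.82 and 0.39 on the log2 scale, and 0 fell, against 1.26% and 0.654% of all tested genes.

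In EV against parental cells 17 of the 27 regulators rose and 1 fell, against 28.9% and 29% of all tested genes. Stag1 rose by 1.06 and Dnmt1, the maintenance DNA methyltransferase, by 0.84 on the log2 scale (edgeR adjusted p = 1.1e-07 and 3.6e-06). In M11 against parental cells 8 rose and 2 fell, against 20.8% and 20% of all tested genes, among the risers Tet2 at 0.56 and Dnmt1 at 0.41 on the log2 scale. In M12 against parental cells 6 rose and 2 fell, against 24.9% and 25.2% of all tested genes: Tet2 rose by 0.72, while Tet1 fell by 2.11 and Ctcf by 0.33 on the log2 scale. M11 against M12 gave 4 of each, against 17.7% and 17.8% of all tested genes, with Tet1 higher in M11 by 2.99 on the log2 scale (SE 0.37, edgeR adjusted p = 2.4e-06).

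Proteins that bind, cleave or signal from clustered protocadherins were read next, 18 of 20 being tested. In OE against EV cells 5 rose and 2 fell, against 14% and 14.5% of all tested genes. With TGF-β1 against vehicle 0 rose and 0 fell, against 1.26% and 0.654%. In vehicle-treated receptor cells against OE cells 5 rose and 5 fell, against 19.5% and 19.3%. In EV against parental cells 12 of the 18 rose and 1 fell, against 28.9% and 29% of all tested genes. In M11 against parental cells 5 rose and 1 fell, against 20.8% and 20%, and in M12 against parental cells 5 rose and 5 fell, against 24.9% and 25.2%. M11 against M12 gave 4 rises and 3 falls, against 17.7% and 17.8%. Ptk2b, a kinase that the cytoplasmic tails inhibit in neurons, rose by 0.50 in OE against EV, 1.70 in EV against parental, 2.10 in M11 against parental and 2.01 in M12 against parental cells on the log2 scale. Adam10, the protease that sheds the gamma ectodomain, rose by 0.61 in EV against parental cells. Fyn, a Src-family kinase, fell by 1.17 on the log2 scale in vehicle against OE cells.

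Of 12 non-clustered protocadherins 2 were tested, Pcdh1 and Pcdh12, which both lie on chromosome 18 beyond Arap3 on the gamma side, and 3 (Pcdh8, Pcdh17 and Pcdh18) had no read. Pcdh1, an epithelial adhesion protein, averaged 24.2 ± 1.0 CPM in EV, 23.8 ± 1.9 CPM in M11 and 28.7 ± 4.3 CPM in M12, against 17.1 ± 0.1 CPM in parental cells (SD, n = 3 each), and rose in all 3. Pcdh12, known from vascular endothelium, had 0.401, 0.438 and 0.366 CPM in M11 and 5.26, 2.06 and 1.90 CPM in M12, against 0.028, 0 and 0.057 CPM in parental libraries. Pcdh12 rose in M11 and in M12 against parental cells. In M12 the difference in Pcdh12 was 6.72 on the log2 scale (SE 0.67, edgeR adjusted p = 4.5e-08).

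The 5 nearest protein-coding genes on each side of the clusters were all tested. Of these 10, 7 rose and 1 fell in EV against parental cells, against 28.9% and 29% of all tested genes. In M11 against parental cells 6 rose and 0 fell, against 20.8% and 20%, and in M12 against parental cells 7 rose and 0 fell, against 24.9% and 25.2%. In OE against EV cells 2 rose and 0 fell, against 14% and 14.5%, and in vehicle against OE cells 1 rose and 2 fell, against 19.5% and 19.3%. TGF-β1 against vehicle gave 0 calls, against 1.26% and 0.654%, and M11 against M12 gave 0 rises and 5 falls, against 17.7% and 17.8%. Arap3, a GTPase-activating protein on the gamma side, rose by 1.59 in M11 and 2.16 in M12 against parental cells, and Hdac3, a histone deacetylase on the same side, by 0.44 and 0.71 on the log2 scale. Of 28 other genes inside the span of the clusters, 16 had no read and 4 were tested. Taf7, a general transcription factor gene between the beta and gamma clusters on the minus strand, went the other way: it averaged 3.02 ± 0.06 CPM in OE against 4.98 ± 0.21 CPM in EV cells, where it fell by 0.72 on the log2 scale (SE 0.14, edgeR adjusted p = 5.1e-04). It averaged 2.95 ± 0.26 CPM in M11 and 2.996 ± 0.249 CPM in M12, against 6.14 ± 1.11 CPM in parental cells, and fell in both (edgeR adjusted p = 4.6e-06 and 3.4e-06). The noncoding RNA 3222401L13Rik, just before the gamma cluster, averaged 0.747 ± 0.013 CPM in M11 against 0.049 ± 0.024 CPM in M12 cells (edgeR adjusted p = 2.8e-06). The overlapping readthrough models Gm42416, Gm37013 and Gm37388 had no read in any library.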

How the data were processed

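The authors deposited expected counts, TPM and FPKM per gene for 21 libraries; the FPKM were not used. Poly(A) RNA was sequenced from a stranded kit, per the labels. Trim Galore, STAR 2.7.1a, GATK 4.1.2.0, RSEM and build mm10 are named in the submitters' processing notes, and the annotation release is not given in the sources used here. The deposited expected counts were rounded and fitted with edgeR 4.0.16 (R 4.3.3; TMM, filterByExpr, robust quasi-likelihood F-test, 21 libraries, 1 mean per group), leaving 15432 genes, with Benjamini-Hochberg adjustment over all of them at 0.05. Deposited TPM gave cluster sums, mixture shares, comparisons between genes and, set against counts, implied transcript lengths, calibrated on genes with 1 transcript, all of which came within 5% of their annotated length. Member coordinates and exons came from GENCODE vM21, in which all 57 identifiers matched. Alternatives used DESeq2 1.42.0 and limma 3.58.1. The fits were tested on simulated data.

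The members and lists were chosen with earlier results of these data known. Genes named with values were Pcdhgc4, Pcdhgb1, the 12 members with the highest mean TPM, and per comparison up to 4 called members in each direction with the largest log2 difference and at least 0.5 CPM in the higher group; from the other lists, up to 4 called genes per comparison with the lowest adjusted p. Pcdha9, Pcdhb7, Pcdhb16, Pcdhga8, Syp and Tubb3 were chosen after their values were seen. Deviations of same-numbered libraries from their group means correlated at 0.14 to 0.35 in TGF-β1 against vehicle and 0.17 to 0.29 in M11 against M12. In the other 5 comparisons the correlations ran between -0.16 and 0.24. Libraries with different numbers were not compared, so whether the numbers pair the libraries was not tested. Replicates differed by more than sampling noise, so each was counted. No sequence is printed.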

Additional observations from a re-analysis of the deposited data

How the results depend on the processing

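Each count was recomputed under 8 other settings and with each library left out. Leaving out 1 library gave 10 to 13 rises in OE against EV, 5 to 8 rises and 0 to 1 falls in vehicle against OE, 10 to 17 rises and 1 fall in EV against parental, 13 to 15 rises in M11 against parental, 7 to 10 rises and 3 to 5 falls in M12 against parental, and 11 to 12 rises and 2 falls in M11 against M12. For vehicle against OE, falls came to 1 without the low-count filter and in limma with either pseudocount, and rises to 11 with only the 6 libraries of the comparison. For EV against parental, rises came to 9 with a filter of 1 CPM in 3 libraries, 7 with only the 6 libraries and 7 in limma on log2(TPM + 1), and falls to 1 in DESeq2, under that filter, with the 6 libraries and in limma with either pseudocount. For M11 against parental, rises came to 10 in limma on log2(TPM + 1). For M12 against parental, falls came to 5 without the filter, 1 under the 1 CPM filter, with the 6 libraries and in limma on log2(TPM + 0.1), and 0 in limma on log2(TPM + 1). For M11 against M12, rises came to 7 under the 1 CPM filter and in limma on log2(TPM + 1). TGF-β1 against vehicle gave 1 fall without the filter and 0 calls under all other settings. The 1 CPM filter tests 15 members in place of 34, and a pseudocount of 1 shrinks low genes; the causes of the other shifts were not tested. Among the cluster sum ratios, only that of beta in M12 against parental cells changed sign. Its log2 value was -0.138 with all libraries, which overlapped. Without M12 replicate 2 it turned positive, with M12 libraries at 1.32 and 1.67 TPM against a parental mean of 1.39 TPM. No call of a named member changed sign. Of 59 such calls, 42 held under every alternative and 17 were lost in at least 1. With a replicate block OE against EV gave 16 rises, vehicle against OE 8 rises and 2 falls, and M11 against M12 11 rises and 2 falls; the other comparisons kept their counts. Depth limits the alpha genes and the lowest beta and gamma genes, and division of reads on shared exons limits every gamma level.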
